A study of Rattus norvegicus with 9 samples.

Results

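Messenger RNA of heat shock protein and J-domain chaperone genes was examined in the left ventricle of 3 groups of rats. A gene was taken when its symbol began with Hsp followed by a, b, c, d, e, h or 9, or with Dnaj, leaving out Hspg2, Hspbap1 and Hspa5, and when its mean over the 9 libraries was at least 1 FPKM (fragment counts scaled by gene length and by library size). The name rule found 71 rows, of which 1 held no values and 6 lay below the limit, so 64 genes were kept of 12451 at that level. They were 24 Hsp and 40 Dnaj genes, the latter made up of 4 Dnaja, 11 Dnajb and 25 Dnajc genes. The members nearest to the limit from above were Dnajb13 at a mean of 1.04 FPKM and Dnajb14 at 1.87, and the genes nearest from below were Dnajc5b at 0.39 and Hspa1a at 0.354.

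The groups were WKY (Wistar Kyoto rats, the normotensive strain usually set beside the hypertensive one), SHR (spontaneously hypertensive rats, bred to develop raised blood pressure) and SHR_OMT (the same hypertensive strain given oxymatrine, an alkaloid of Sophora roots), with 3 libraries each. The labels name no engineered allele, and the sources used here give neither the animals' age and sex nor the dose, the duration and the time of collection. By its title, the study concerns oxymatrine and myocardial hypertrophy in SHR. Whether the libraries of a group came from separate animals is not stated, so p-values measure the spread between these libraries, and depth is unknown because the values are FPKM.

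Chaperones bind unfolded or partly folded proteins and keep them from clumping. Hsp70 proteins hold and release a client protein in a cycle driven by ATP, J-domain proteins bring the client and switch on the ATPase, and nucleotide exchange factors reset it. Hsp90 proteins finish the folding of kinases and receptors, Hsp60 with Hsp10 encloses proteins inside mitochondria, and small heat shock proteins hold unfolded proteins without ATP. Heart muscle is rich in small heat shock proteins, which bind the filaments and the Z-disc, and its many mitochondria depend on an Hsp70 in the matrix to pull in proteins made in the cytosol.

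All 10 ventricular muscle markers looked at were expressed, with a summed level of 44111 to 44615 FPKM in WKY, 46025 to 48047 in SHR and 41738 to 46631 in SHR_OMT. Libraries correlated at 0.988 to 0.991 within groups and at 0.973 to 0.990 between groups across the log2 levels of all tested genes. The sum of FPKM was 587526 to 606633 per library. The 64 chaperone genes made up 0.995% to 1.03% of that sum in WKY, 1.18% to 1.20% in SHR and 1.12% to 1.17% in SHR_OMT, so the ranges of the 3 groups did not overlap. Hspb6 and Hspb7 alone held 30.7% to 33.0% of the chaperone sum in WKY, 37.1% to 39.5% in SHR and 35.6% to 39.5% in SHR_OMT.

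**Figure D1:**
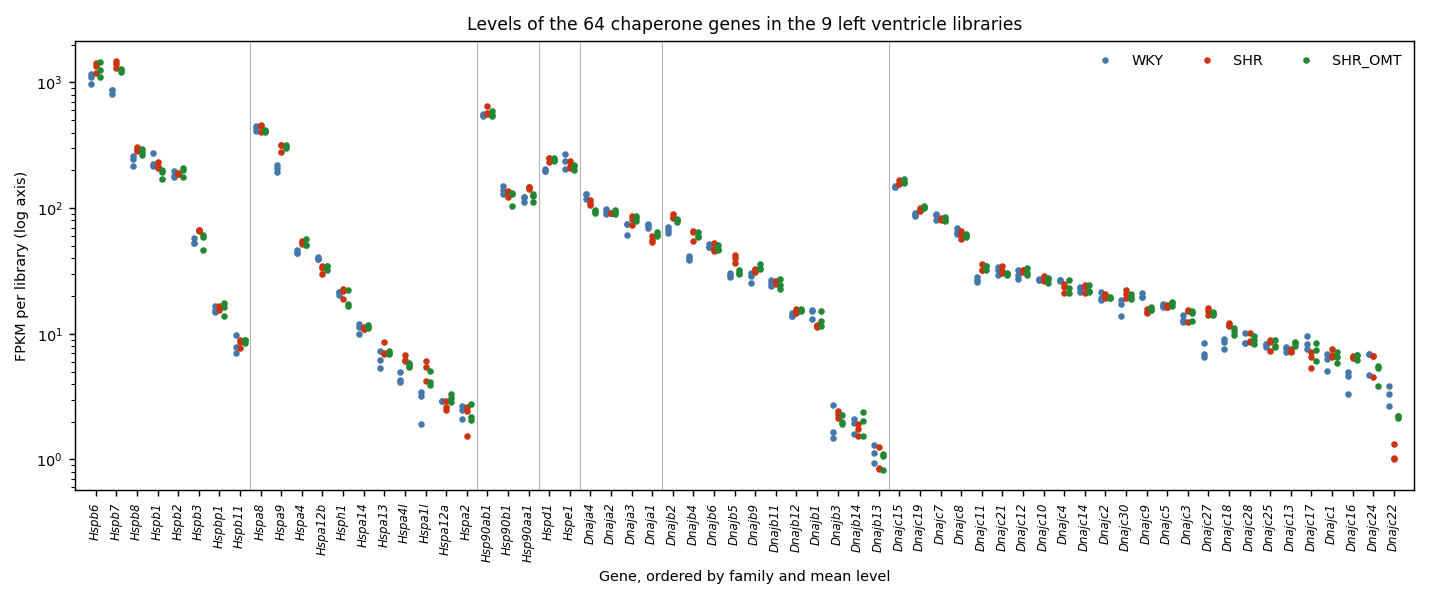
FPKM of each of the 64 chaperone genes (log axis), 1 point per library, coloured by group and ordered by family and mean level. Levels run from a mean of 1.04 FPKM for Dnajb13 to 1226 for Hspb6, and for most genes the 3 groups lie close together.

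The median of the 64 mean levels was 26.3 FPKM, and 14 genes stood at 100 FPKM or more. Hspb6 led with a mean of 1226 FPKM, followed by Hspb7 at 1165, Hsp90ab1 at 568, Hspa8 at 425 and Hspa9 at 275. Most levels were steady, since in 46 of the 64 genes the highest library was under 1.5 times the lowest. At the other end Hspa1a, the stress-inducible Hsp70, was listed at 0 in 3 libraries, 1 of each group, and at up to 0.9 FPKM in the others with overlapping groups. Its near-identical copy Hspa1b was not analysed here.

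In SHR against WKY, 17 of the 64 chaperone genes were higher, 6 were lower and 41 did not pass an adjusted p of 0.05 in limma. Of all 12451 genes 33.9% passed, 10.8% higher and 23.1% lower, so the members' share of 35.9% was near the background while its division by direction differed, with 26.6% higher and 9.38% lower. That division was described and not tested. The shares of all genes are also those to set beside the list counts given below for this comparison. With median-of-ratios scaling 22 members were higher and 4 lower, or 84.6% of calls higher in place of 73.9%, while over all genes 16.3% were higher and 14.4% lower. The median log2 difference was 0.03 over the members and −0.08 over all genes. The 41 members that did not pass had differences of −0.38 to 0.29, with adjusted p-values of 0.0507 to 0.99. All differences are on the log2(FPKM + 1) scale, which understates changes of weakly expressed genes, and in bulk tissue fewer cells of a type and less RNA per cell cannot be told apart. Without overlap between groups, 21 members lay higher in SHR and 8 lower, or 32.8% and 12.5%, where 15.1% and 33% of all genes did. By the authors' deposited table, q-values under 0.05 were given to 24 members for this contrast (21 higher and 3 lower) and to 22.9% of the tested genes.

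**Figure D2:**
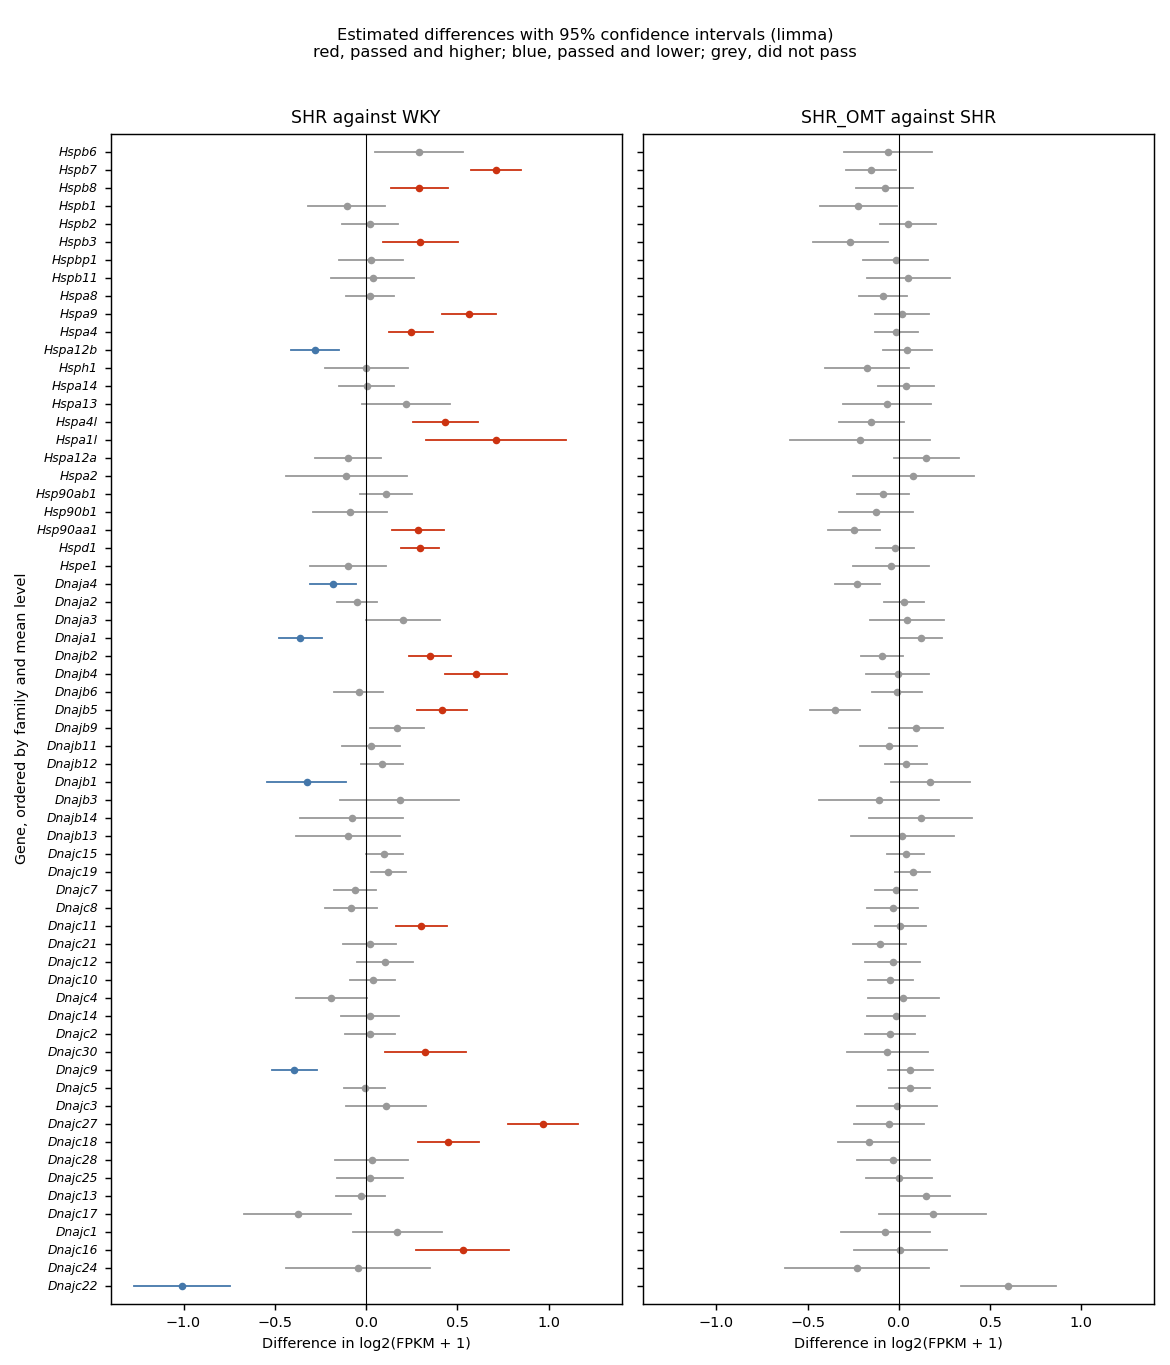
Difference in log2(FPKM + 1) of each of the 64 genes with its 95% confidence interval from limma, for SHR against WKY on the left and SHR_OMT against SHR on the right. Coloured genes passed an adjusted p of 0.05, 17 higher in red and 6 lower in blue on the left, and 0 on the right.

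Of the 6 small heat shock proteins tested, Hspb7, Hspb8 and Hspb3 were higher in SHR and 0 were lower. Of the 10 ventricular muscle markers 3 were higher in SHR as well (Actc1, Myh6 and Ryr2) and 0 were lower, with summed levels that did not overlap between SHR and WKY. Their part in the small heat shock protein differences was not tested. Hspb7, a heart-enriched protein that binds the actin crosslinker filamin C (NCBI Gene ID 50565), measured 867, 875 and 805 FPKM in the WKY libraries, 1293, 1479 and 1407 in SHR and 1272, 1222 and 1262 in SHR_OMT. Every library of both hypertensive groups lay above every WKY library, and the treated libraries lay just below the untreated ones. The group means were 849 ± 38.0 FPKM in WKY and 1393 ± 93.6 in SHR (SD, n = 3 each), a log2 difference of 0.71 (SE 0.06, adjusted p = 6.88e-05), the smallest p-value among the 64 genes.

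Hspb8, which works with Bag3 to send damaged filament proteins to autophagy, measured 246, 259 and 217 FPKM in the WKY libraries, 283, 294 and 306 in SHR and 293, 278 and 266 in SHR_OMT (0.29 in SHR against WKY, SE 0.07, adjusted p = 0.0113). Its WKY libraries were the lowest of the 9. Hspb3, which pairs with Hspb2 in muscle, measured 52.6, 52.7 and 57.5 FPKM in the WKY libraries and 65.7, 67.1 and 67.6 in SHR (log2 difference 0.30, SE 0.09, adjusted p = 0.0329). SHR lay wholly above WKY, and the Hspb3 call was lost when WKY replicate 1 or 2 or any SHR library was left out (adjusted p of 0.0654 to 0.0958) and without the filter (0.0529). Hspb6, also called Hsp20 and known as a target of protein kinase A in heart muscle (NCBI Gene ID 192245), measured 1165, 981 and 1100.0 FPKM in the WKY libraries, 1347, 1193 and 1433 in SHR and 1263, 1110.2 and 1446 in SHR_OMT. The SHR libraries lay above the WKY ones by a narrow margin, and the log2 difference of 0.29 (SE 0.11, adjusted p = 0.062) did not pass. It passed in 7 of 17 alternatives, among them both other scalings (adjusted p = 0.0345 and 0.0463) and the replicate number as a block (0.0167). Leaving out SHR replicate 2 or SHR_OMT replicate 2 or 3 also gave a pass (0.0476, 0.0432 and 0.0382). Replicate 2 was the lowest Hspb6 library in each group. Hspb1, or Hsp27, averaged 238 ± 30.1 FPKM in WKY against 220.0 ± 12.6 in SHR (adjusted p = 0.414), and Hspb2 had 185 ± 11.2 and 188 ± 2.09 (adjusted p = 0.815). Cryab, the most abundant small heat shock protein of the heart and outside the name rule, stood at 3888 ± 113 FPKM in WKY and 3862 ± 32.4 in SHR (log2 difference −0.01, adjusted p = 0.909).

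Among 11 Hsp70 and Hsp110 genes, Hspa9, Hspa4, Hspa4l and Hspa1l were higher in SHR and Hspa12b was lower. Hspa9, or mortalin, the Hsp70 of the mitochondrial matrix and motor of protein import (NCBI Gene ID 291671), measured 193, 221 and 207 FPKM in the WKY libraries, 318, 320.4 and 282 in SHR and 317, 313 and 300.4 in SHR_OMT. All 6 hypertensive libraries lay above the 3 WKY ones, and the 2 hypertensive groups overlapped. The difference from WKY to SHR was 0.57 (SE 0.07, adjusted p = 0.000319).

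Hspa4 and Hspa4l are relatives of Hsp110 that act as nucleotide exchange factors for Hsp70. Hspa4 rose from 44.9 ± 1.19 to 53.4 ± 1.31 FPKM (log2 difference 0.25, adjusted p = 0.00678) and Hspa4l from 4.46 ± 0.467 to 6.36 ± 0.404 (0.43, adjusted p = 0.00329). Hsph1, the inducible member of the same group, averaged 21.2 ± 0.709 FPKM in WKY and 21.2 ± 1.91 in SHR, with a 95% interval of the log2 difference from −0.23 to 0.23. Hspa8, the constitutive Hsp70 of the cytosol, measured 411, 447 and 431 FPKM in the WKY libraries and 449, 458 and 402 in SHR, overlapping groups with an adjusted p of 0.813. Hspa1l, a testis Hsp70 next to Hspa1a in the genome and very similar to it, rose from 2.85 ± 0.818 to 5.25 ± 0.93 FPKM (0.71, SE 0.17, adjusted p = 0.0116). Its level is uncertain, because estimated reads can be divided between such copies. Hspa2, the other testis Hsp70, stood at 2.40 ± 0.289 FPKM in WKY against 2.19 ± 0.582 in SHR (adjusted p = 0.609).

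Hspa12b, an Hsp70 relative of endothelial cells, measured 40.6, 39.3 and 39.6 FPKM in the WKY libraries, 33.7, 30.0 and 34.5 in SHR and 34.6, 32.4 and 34.4 in SHR_OMT, so WKY lay wholly above both other groups. The log2 difference between SHR and WKY was −0.28 (SE 0.06, adjusted p = 0.00647). Endothelial markers moved the same way: 8 of 9 were lower in SHR, and their summed level was 761 to 893 FPKM in WKY, 570.1 to 629 in SHR and 626 to 648 in SHR_OMT. Their part in the Hspa12b difference was not tested.

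In the Hsp90 group only Hsp90aa1, the more inducible cytosolic form, was higher among the 3 genes. It measured 122, 112 and 122 FPKM in the WKY libraries, 142, 146 and 146 in SHR and 129.8, 126 and 111 in SHR_OMT. The SHR libraries lay above all 6 others, with a log2 difference from WKY of 0.28 (SE 0.06, adjusted p = 0.00829). Hsp90ab1, the constitutive cytosolic form, measured 549, 562 and 539 FPKM in the WKY libraries and 649.6, 575 and 560.5 in SHR (adjusted p = 0.205). Hsp90b1, the form of the endoplasmic reticulum, had 140.4 ± 9.87 and 132 ± 8.07 (adjusted p = 0.491).

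Hspd1 and Hspe1 encode Hsp60 and Hsp10, the barrel and the lid of the mitochondrial chaperonin, and lie head to head in the genome. Hspd1 (NCBI Gene ID 63868) measured 206, 198 and 197 FPKM in the WKY libraries, 252, 251 and 234 in SHR and 249, 236 and 241 in SHR_OMT. WKY lay wholly below both hypertensive groups, and the log2 difference between SHR and WKY was 0.29 (SE 0.05, adjusted p = 0.00152). Hspe1 measured 237, 269 and 205 FPKM in the WKY libraries, 215, 209 and 236 in SHR and 221, 215 and 203 in SHR_OMT. The groups overlapped for Hspe1, and its log2 difference was −0.10 (95% interval −0.31 to 0.11, adjusted p = 0.435). The level of Hspd1 divided by that of Hspe1 was 0.735 to 0.964 in WKY, 0.991 to 1.20 in SHR and 1.09 to 1.19 in SHR_OMT. Hspe1 is a short gene with processed copies elsewhere in mammalian genomes, so its estimated level is uncertain.

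**Figure D3:**
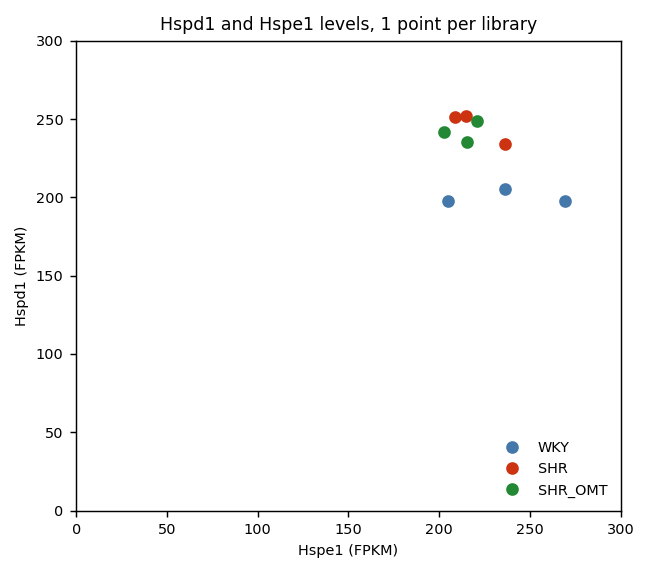
FPKM of Hspd1 (vertical axis) against Hspe1 (horizontal axis), 1 point per library. The 3 WKY points lie at 197 to 206 FPKM of Hspd1, below the other 6 at 234 to 252, while Hspe1 ranges overlap between groups.

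Heat shock factor Hsf1 drives stress-induced chaperone genes through a repeated element in their promoters, and the promoters that hold it are shown because the genes that hold it differed among themselves in direction. The element was searched as 3 alternating units, GAA-NN-TTC-NN-GAA or TTC-NN-GAA-NN-TTC (N is any base, and a run of overlapping matches was counted once), on both strands in RefSeq windows of build GRCr8 from 250 bases before to 50 bases after the gene start. Windows were matched for 51 of the 64 genes, and 5 of them held the element (9.80%), against 267 of 33469 windows of all genes (0.798%). Hsp90aa1 and Dnajb4, both higher in SHR, were among the genes without a matched window and were not searched. The windows of all genes were taken whatever the level of the gene, while the members averaged at least 1 FPKM, so these shares come from unlike sets. The windows of Dnaja1 (chr5:60638154-60638453, plus strand), Hspa8 (chr8:50080264-50080563, plus strand), Hspe1 (chr9:64084077-64084376, plus strand) and Hsph1 (chr12:10427118-10427417, plus strand) follow, 5′ to 3′, with the element in capitals.
Dnaja1: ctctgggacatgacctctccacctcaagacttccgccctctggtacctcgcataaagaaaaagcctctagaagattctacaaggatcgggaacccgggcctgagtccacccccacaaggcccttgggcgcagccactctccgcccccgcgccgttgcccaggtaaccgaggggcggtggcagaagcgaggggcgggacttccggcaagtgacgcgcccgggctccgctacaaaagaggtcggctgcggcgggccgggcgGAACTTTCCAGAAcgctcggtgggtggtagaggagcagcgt
Hspa8: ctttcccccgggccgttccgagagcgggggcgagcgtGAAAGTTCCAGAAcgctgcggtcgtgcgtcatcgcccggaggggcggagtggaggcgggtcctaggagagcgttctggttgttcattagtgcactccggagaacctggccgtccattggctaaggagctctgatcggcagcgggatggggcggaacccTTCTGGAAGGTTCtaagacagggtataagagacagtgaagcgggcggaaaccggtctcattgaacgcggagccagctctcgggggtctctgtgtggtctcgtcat
Hspe1: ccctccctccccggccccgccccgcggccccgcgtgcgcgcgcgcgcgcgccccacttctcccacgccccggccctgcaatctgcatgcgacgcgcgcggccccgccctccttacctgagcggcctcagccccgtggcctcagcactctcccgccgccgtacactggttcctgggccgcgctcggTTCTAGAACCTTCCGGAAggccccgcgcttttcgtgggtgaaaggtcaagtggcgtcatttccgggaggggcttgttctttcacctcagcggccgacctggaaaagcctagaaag
Hsph1: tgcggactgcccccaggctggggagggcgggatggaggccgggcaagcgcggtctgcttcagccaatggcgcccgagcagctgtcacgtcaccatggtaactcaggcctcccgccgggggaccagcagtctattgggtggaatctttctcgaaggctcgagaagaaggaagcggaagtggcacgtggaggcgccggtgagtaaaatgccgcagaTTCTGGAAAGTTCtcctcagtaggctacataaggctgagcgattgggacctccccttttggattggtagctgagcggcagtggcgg
The fifth window was that of Hspd1 (chr9:64083988-64084287, minus strand), which shares 211 bases with that of Hspe1. Both hold the same run of 18 bases, in which 2 overlapping matches join. It begins 65 bases before the start of Hspe1 and 242 bases before the start of Hspd1. Of the 5 genes with the element Hspd1 was higher in SHR, Dnaja1 was lower, and Hspa8, Hspe1 and Hsph1 did not pass. A match describes these letters only.

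Of 13 tested genes on a list of Hsf1-inducible chaperones, 5 were higher in SHR (Hspb8, Hspa4l, Dnajb4, Hsp90aa1 and Hspd1) and 3 were lower (Dnaja4, Dnajb1 and Dnaja1), with a median log2 difference of 0.02. Dnaja1, a cytosolic J-domain partner of Hsp70 (NCBI Gene ID 65028), measured 70.1, 75.0 and 73.3 FPKM in the WKY libraries, 54.0, 59.6 and 56.1 in SHR and 60.7, 64.02 and 59.98 in SHR_OMT. WKY lay wholly above SHR_OMT, which lay wholly above SHR, and the SHR against WKY difference was −0.36 (SE 0.05, adjusted p = 0.00097). Dnajb1, the J-domain partner with which Hsp70 dissolves aggregates, measured 13.2, 15.3 and 15.5 FPKM in the WKY libraries and 11.7, 11.5 and 11.2 in SHR (log2 difference −0.33, adjusted p = 0.0279). Dnaja4 measured 129, 129.6 and 117 FPKM in the WKY libraries, 105, 116 and 111 in SHR and 96.6, 91.8 and 94.4 in SHR_OMT, with no overlap between any groups (−0.18 in SHR against WKY, adjusted p = 0.0336). Both other scalings ended the SHR calls of Dnajb1 (adjusted p = 0.0703 and 0.0598) and Dnaja4 (0.274 and 0.107), as did leaving out WKY replicate 2 or 3 or any SHR library for Dnajb1 (up to 0.0868) and WKY replicate 1 or 2 or SHR replicate 1 or 3 for Dnaja4 (up to 0.109). The Dnaja4 call was also lost with no variance trend, with the replicate number as a block and with only the groups compared (0.0561, 0.0622 and 0.0599).

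Hsf1 itself measured 19.4, 19.2 and 19.9 FPKM in the WKY libraries, 14.5, 15.9 and 14.9 in SHR and 15.7, 17.3 and 15.6 in SHR_OMT, with WKY wholly above the rest (−0.35, SE 0.06, adjusted p = 0.00199). Where 10.8% of all genes were higher in SHR and 23.1% lower, the wider list of 36 heat shock factors and co-chaperones had 7 higher and 8 lower. Its genes had a median log2 difference of −0.00. Those with the smallest p-values were Ahsa2, a relative of the Hsp90 activator Ahsa1 (23.0 ± 0.337 FPKM in WKY, 16.4 ± 0.0794 in SHR, log2 difference −0.46), Bag2, an inhibitor of the ubiquitin ligase Stub1 (0.34), Hsf1 and Grpel1, the exchange factor of Hspa9 (172 ± 7.10 to 206 ± 2.70 FPKM, 0.26). Bag3, the partner of Hspb8, rose from 133 ± 4.53 to 154 ± 4.58 FPKM (0.21, adjusted p = 0.00557), and Unc45b, the myosin chaperone, from 42.2 ± 2.63 to 49.6 ± 3.55 (0.23, adjusted p = 0.0456). Of 14 genes of the TRiC chaperonin and its helper prefoldin, 1 was higher (Pfdn1) and 3 were lower (Cct7, Pfdn5 and Pfdn6). Of 12 tested immediate early genes, which respond to handling and stress within minutes, 0 passed in limma in SHR against WKY. An unadjusted p below 0.05 was found for 0 of the 12. Their estimates lay below 0 in 10 of the 12, with a median of −0.20, where 7942 of 12451 estimates over all genes did. For 3 of these 12 genes, Fos (−1.01, adjusted p = 0.121), Egr1 (−0.84, adjusted p = 0.112) and Ier2 (−0.39, adjusted p = 0.122), every SHR library lay below every WKY library. The same held for 33% of all genes. In SHR_OMT against SHR 0 of the 12 passed, with 2 at an unadjusted p below 0.05. There 10 of the 12 estimates lay above 0, with a median of 0.29, where 8025 of 12451 over all genes did. Both comparisons share the SHR libraries. In SHR_OMT against WKY Junb was higher (0.55, adjusted p = 0.041) and 0 were lower. Of 15 tested clock genes 6 were higher and 1 was lower in SHR against WKY. The part of either list in the chaperone differences was not tested.

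In class B of the J-domain proteins, most of which carry a J-domain and a stretch rich in glycine, Dnajb4, Dnajb5 and Dnajb2 were higher in SHR and Dnajb1 was lower among 11 genes. Dnajb4, whose loss causes a myopathy in humans (NCBI Gene ID 295549), measured 40.3, 42.0 and 38.4 FPKM in the WKY libraries, 54.5, 65.2 and 65.8 in SHR and 58.9, 64.8 and 60.4 in SHR_OMT. Both hypertensive groups lay above WKY and overlapped with each other (0.60 in SHR against WKY, SE 0.08, adjusted p = 0.000485). Dnajb5, which in mouse heart binds thioredoxin and a histone deacetylase that restrains growth (NCBI Gene ID 313811), measured 29.5, 30.7 and 28.5 FPKM in the WKY libraries, 36.6, 42.5 and 40.4 in SHR and 30.2, 32.2 and 30.7 in SHR_OMT. The SHR libraries lay above all others (0.42, SE 0.06, adjusted p = 0.00108). Dnajb2, which handles ubiquitinated clients, rose from 67.0 ± 3.70 to 85.6 ± 3.14 FPKM (0.35, adjusted p = 0.00111). Dnajb6, a Z-disc associated chaperone mutated in a limb-girdle muscular dystrophy, had 49.9 ± 1.44 and 48.6 ± 3.40 FPKM (log2 difference −0.04, 95% interval −0.18 to 0.09, adjusted p = 0.629).

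Class C holds the J-domain proteins with other architectures, and 5 of its 25 genes were higher in SHR and 2 lower. Dnajc27, a small GTPase of the Rab family with a J-domain (NCBI Gene ID 298859), measured 6.51, 6.86 and 8.42 FPKM in the WKY libraries, 14.2, 15.1 and 16.0 in SHR and 14.2, 14.4 and 14.97 in SHR_OMT. The hypertensive groups overlapped and lay far above WKY, with a log2 difference of 0.97 (SE 0.09, adjusted p = 8.59e-05). Dnajc22, whose fly relative wurst takes part in endocytosis (NCBI Gene ID 362998), ran the other way, with 3.84, 2.65 and 3.34 FPKM in WKY, 1.02, 1.01 and 1.32 in SHR and 2.22, 2.15 and 2.23 in SHR_OMT. The 3 groups did not overlap, and the SHR against WKY difference of −1.01 (SE 0.12, adjusted p = 0.000292) was the largest in size among the 64 genes.

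Dnajc9, a co-chaperone of histones H3 and H4, measured 21.0, 19.7 and 19.6 FPKM in the WKY libraries, 14.6, 14.8 and 15.8 in SHR and 15.5, 16.4 and 15.4 in SHR_OMT, again with WKY apart (−0.39, SE 0.05, adjusted p = 0.000807). Dnajc16 and Dnajc18, J-domain proteins listed with the endoplasmic reticulum, rose by 0.53 (adjusted p = 0.00682) and 0.45 (adjusted p = 0.00187). They were the 2 higher genes among 12 listed there, with 0 lower. Dnajb9, which helps remove misfolded proteins from that compartment, had 28.3 ± 2.45 and 31.9 ± 0.81 FPKM (adjusted p = 0.0713), and passed without WKY replicate 1 and with both other scalings (lowest adjusted p = 0.0129). Dnajc3, a J-domain protein of the lumen, had 13.2 ± 0.958 and 14.4 ± 1.74 (adjusted p = 0.418).

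**Figure D4:**
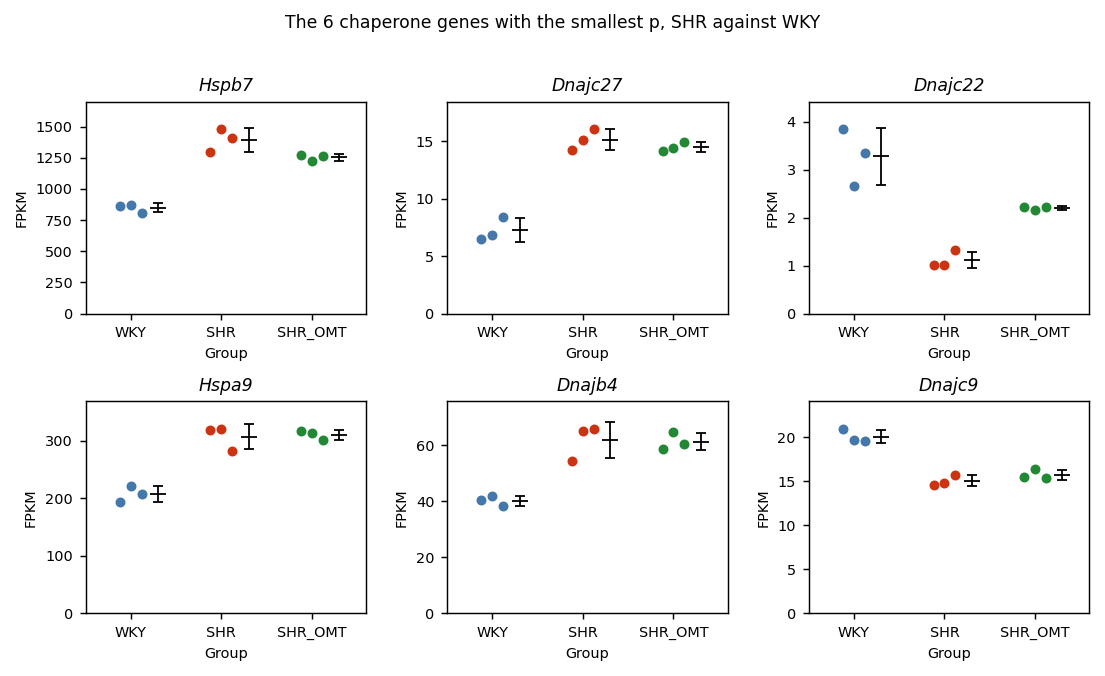
FPKM per library of the 6 chaperone genes with the smallest p-values in SHR against WKY, with the mean and SD of each group (n = 3) in black. Hspb7, Dnajc27, Hspa9 and Dnajb4 are higher and Dnajc22 and Dnajc9 lower in every SHR library than in every WKY library. Choosing genes by p-value in this comparison favours such separation, and 15.1% of all genes lay wholly higher and 33% wholly lower.

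Of 10 mitochondrial chaperone genes 4 were higher in SHR, Hspa9, Hspd1, Dnajc11 and Dnajc30, and 0 were lower, with a median log2 difference of 0.16. Dnajc11, associated with the machinery that shapes the cristae, measured 28.5, 26.7 and 25.8 FPKM in the WKY libraries, 32.2, 32.4 and 36.3 in SHR and 32.3, 34.5 and 34.5 in SHR_OMT, with WKY wholly below (0.30, SE 0.06, adjusted p = 0.00543). Dnajc30, which serves the repair of complex I, rose from 16.5 ± 2.43 to 20.8 ± 1.59 FPKM (0.33, adjusted p = 0.0315), a call lost without WKY replicate 2 or SHR replicate 2 or 3 (adjusted p = 0.0688, 0.0699 and 0.0977). The Dnajc30 call was also lost without the filter, with the replicate number as a block and with only the groups compared (0.0514, 0.0520 and 0.0574). Dnajc19 and Dnajc15, related J-domain proteins of the import motor, had 89.0 ± 2.97 and 96.9 ± 2.43 FPKM (adjusted p = 0.0526) and 149 ± 0.77 and 160 ± 5.66 FPKM (adjusted p = 0.114). In both genes the SHR libraries lay above the WKY libraries. Both passed with median-of-ratios scaling (adjusted p = 0.0103 and 0.0241), and Dnajc19 also without WKY replicate 2 and without the filter. Dnaja3, the J-domain partner of Hspa9, had 70.1 ± 8.19 and 80.7 ± 7.06 FPKM (adjusted p = 0.113). Among 8 mitochondrial proteases 4 were higher (Lonp1, Oma1, Afg3l2 and Spg7) and 0 lower, with Spg7 rising from 29.2 ± 2.46 to 40.3 ± 0.83 FPKM (0.45, adjusted p = 0.000962).

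In SHR_OMT against SHR, 0 of the 64 chaperone genes passed in limma, where 0.241% of all genes did, 0.153% higher and 0.0883% lower (0.0803% and 0.104% with median-of-ratios scaling). In the same limma fit 9 members had an unadjusted p below 0.05, or 14.1%, against 12.1% of all genes, and 4 members had a q-value under 0.05 in the authors' deposited table, where 1.24% of tested genes did. Those 4 were Dnajb5 (log2 ratio −0.42, q = 0.000279), Hsp90aa1 (−0.30, q = 0.00129), Dnaja4 (−0.28, q = 0.0107) and Hspb1 (−0.27, q = 0.0496), each lower in treated rats in the authors' deposited table. The median log2 difference was −0.02 over the members and 0.04 over all genes. Of the 64 genes 9 had every treated library below every untreated one, where 3.99% of all genes did, and 5 had every treated library above, where 13.2% did. All these comparisons share the SHR libraries with the comparison to WKY.

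Dnajb5 had the smallest p-value, with 36.6, 42.5 and 40.4 FPKM untreated and 30.2, 32.2 and 30.7 treated, a log2 difference of −0.35 (95% interval −0.49 to −0.21, adjusted p = 0.0762). It passed with median-of-ratios scaling and without SHR replicate 1, with a lowest adjusted p of 0.0398 and a highest of 0.256 over 17 alternatives. The treated libraries overlapped with WKY at 28.5 to 30.7 FPKM, and SHR_OMT against WKY gave a difference of 0.07 (adjusted p = 0.461). Dnajc22 came next, at 1.02, 1.01 and 1.32 FPKM untreated and 2.22, 2.15 and 2.23 treated (log2 difference 0.60, 95% interval 0.34 to 0.86, adjusted p = 0.103). Its treated libraries lay between the other groups without overlap.

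Hsp90aa1 stood at 142, 146 and 146 FPKM untreated and at 129.8, 126 and 111 treated (−0.25, 95% interval −0.39 to −0.10, adjusted p = 0.186), all treated libraries below all untreated ones. Hspb3 had 65.7, 67.1 and 67.6 FPKM untreated and 59.1, 46.7 and 61.6 treated (−0.27, adjusted p = 0.307), again without overlap. For Dnaja4 the untreated level of 111 ± 5.40 FPKM and the treated level of 94.3 ± 2.40 both lay below the WKY level of 125 ± 7.07 (−0.23 in SHR_OMT against SHR, adjusted p = 0.17). Hspb1 had 217, 209.5 and 234 FPKM untreated and 202, 194 and 170.3 treated (−0.22, adjusted p = 0.386).

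Of the genes that passed between strains, some gave estimates close to 0 for oxymatrine and others did not. Hspa9 had 307 ± 21.7 FPKM untreated and 310.2 ± 8.65 treated, with a log2 difference of 0.02 and a 95% interval of −0.13 to 0.17. Dnajb4 gave −0.01 (interval −0.18 to 0.17), Hspd1 −0.02 (interval −0.13 to 0.08) and Dnajc27 −0.05 (interval −0.25 to 0.14). Hspb7, with the smallest p-value between strains, gave −0.15 (interval −0.29 to −0.02, adjusted p = 0.366). Dnajc22, Dnajb5 and Dnaja1, which had smaller p-values between strains than Hspd1, gave 0.60, −0.35 and 0.12. Their intervals did not include 0 either, and their adjusted p-values in limma were 0.103, 0.0762 and 0.396. These intervals bound the size of a change but do not show that the levels were the same. Among the companion lists 0 of 36 heat shock factors and co-chaperones passed in limma, with 2 at an unadjusted p below 0.05, and Hsf1 gave 0.09 (adjusted p = 0.572). Of the clock genes 7 were higher and 2 lower in SHR_OMT than in SHR, and the summed level of the 16 listed was 158 to 183 FPKM in WKY, 189 to 202 in SHR and 319 to 361 in SHR_OMT. Their part in the chaperone values was not tested.

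**Figure D5:**
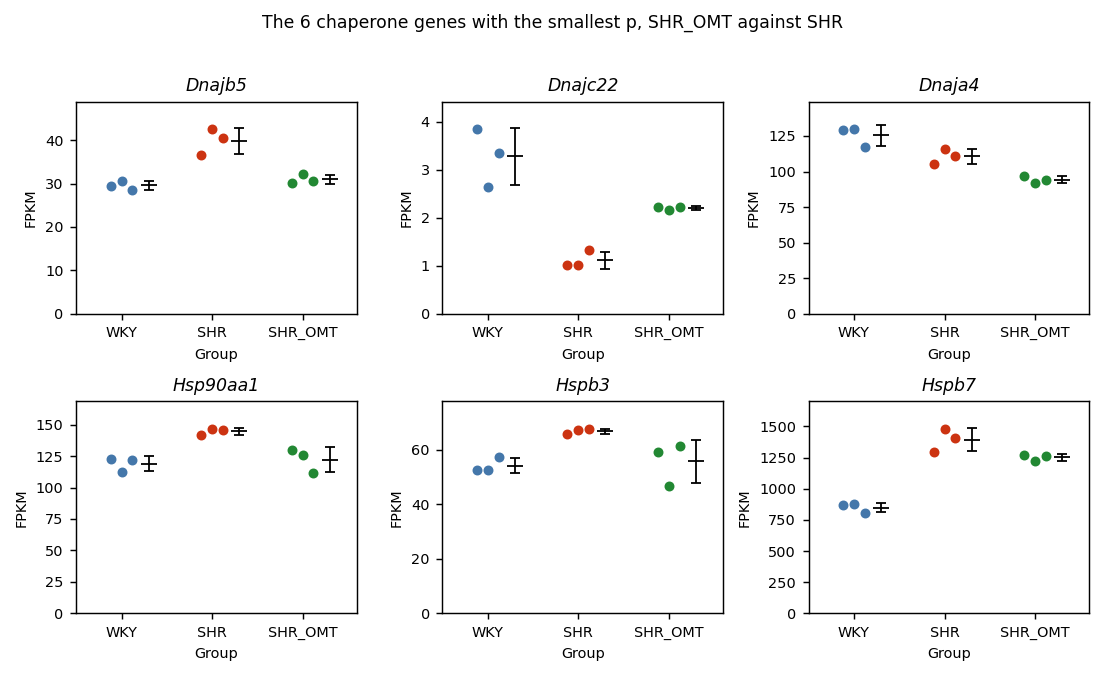
FPKM per library of the 6 chaperone genes with the smallest p-values in SHR_OMT against SHR, with the mean and SD of each group (n = 3) in black. In each panel the treated libraries do not overlap with the untreated ones. Choosing genes by p-value in this comparison favours such separation, and 13.2% of all genes lay wholly higher and 3.99% wholly lower. An adjusted p of 0.05 in limma was passed by 0 of the 6, the lowest being 0.0762 for Dnajb5.

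In SHR_OMT against WKY, 14 of the 64 genes were higher and 6 lower in limma, or 31.2% in all, where 24.9% of all genes passed, 10.2% higher and 14.6% lower. With median-of-ratios scaling 18 members were higher and 5 lower, where 13.3% and 11.1% of all genes were. The count of lower members was 3 without WKY replicate 1 and 3 without SHR_OMT replicate 2. Of the clock genes 10 were higher and 4 lower in this comparison, and of the ventricular muscle markers 4 were higher and 2 lower. Without overlap between groups, 20 members lay higher and 7 lower, where 17% and 25.7% of all genes did. This comparison shares its WKY libraries with SHR against WKY and its treated libraries with the previous one. The largest differences were 0.91 for Dnajc27 (adjusted p = 0.000147), 0.60 for Dnajb4 (adjusted p = 0.000766), 0.58 for Hspa9 (adjusted p = 0.000398) and 0.56 for Hspb7 (adjusted p = 0.000307). In the other direction Dnajc22 gave −0.41 (adjusted p = 0.0304), Dnaja4 −0.41 (adjusted p = 0.00107), Dnajc9 −0.33 (adjusted p = 0.00268) and Hspb1 −0.33 (adjusted p = 0.0318). The calls of Dnajc22 and Hspb1 were each lost in 5 alternatives, among them leaving out WKY replicate 1 or SHR_OMT replicate 2 or 3. That of Dnajc22 was also lost without WKY replicate 3 or SHR_OMT replicate 1. The highest adjusted p was 0.11 for Dnajc22 and 0.0987 for Hspb1.

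The mitochondrial genes Dnajc19 (102 ± 1.398 FPKM in SHR_OMT against 89.0 ± 2.97 in WKY, 0.20, adjusted p = 0.00981), Dnajc11 (0.31, adjusted p = 0.00679) and Hspd1 (0.27, adjusted p = 0.00321) were higher in treated rats than in WKY. Dnajb9 was also higher at 34.2 ± 1.51 FPKM (0.27, adjusted p = 0.0174), a call lost without SHR_OMT replicate 1 (adjusted p = 0.0653). Hspb8, at 0.21 (adjusted p = 0.0497), lost its call in 14 of 17 alternatives, among them leaving out any library other than WKY replicate 2 (highest adjusted p = 0.151). Dnajc18 (0.29, adjusted p = 0.0214) lost its call without WKY replicate 1 or 2 or SHR_OMT replicate 1 or 3 (up to 0.0684), and Hspa4l (0.28, adjusted p = 0.03) without WKY replicate 1 or 3 or SHR_OMT replicate 1 or 3 (up to 0.0988). The Hspa4l call was also lost without the filter and with the replicate number as a block (0.0532 and 0.0617). Hspa12b was lower by an estimate of −0.23 (adjusted p = 0.0198), a call lost with median-of-ratios scaling and without WKY replicate 1 or SHR_OMT replicate 2 (0.0553, 0.0679 and 0.0615), and 7 of 9 endothelial markers were lower as well. Hsp90aa1 and Hspb3 gave 0.04 (95% interval −0.10 to 0.18) and 0.03 (interval −0.17 to 0.24).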

How the data were processed

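Total RNA of the left ventricle was isolated using Trizol, and libraries were built using a KAPA RNA HyperPrep kit and run on a BGISEQ-500 instrument, per the labels' protocols. Bowtie2, RSEM 1.3.1, DESeq2 1.4.5 and build Rnor_6.0 appear in the submitters' processing notes, which state no roles. The authors' deposited table holds FPKM for each gene and library, per the file headers. It also holds the authors' log2 ratio and the authors' q-value for 2 contrasts (SHR to WKY, SHR_OMT to SHR), which were only set beside the values computed here. Columns were matched to libraries by name, and of 22864 rows 19294 held values.

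The 12451 genes averaging at least 1 FPKM were tested as log2(FPKM + 1) using limma 3.58.1 (R 4.3.3), in one fit over the 3 groups (6 residual degrees of freedom, mean-variance trend, two-sided, Benjamini-Hochberg over all tested genes, threshold 0.05). FPKM are not counts, so no count test was run and no counting error can be given. The fit was tested on simulated data with 200 genes changed by known amounts. For SHR_OMT against SHR it recovered 32% of 1.25-fold and 78% of 1.5-fold changes, with 11 false calls, so many small changes would be missed. The changes were made on the log2(FPKM + 1) scale and included 2-fold and 4-fold ones. In the data only 30 genes passed in this comparison, and with fewer passes the adjustment asks for a smaller p. The simulated shares can therefore overstate what the fit would recover in these data. Members and lists were chosen with earlier results of these data known. Genes were named when called and among the 12 largest differences per direction, when on a fixed list of chaperones, or when among the 4 smallest p-values of a companion list, with Cryab, Hsf1, Bag3 and Unc45b always named. Genes named beyond these complete a count or were chosen after their values were seen. RefSeq promoter windows of GRCr8 were matched by gene ID. Protein sequences were not used here.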

Additional observations from a re-analysis of the deposited data

How the results depend on the processing

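The counts were recomputed under 17 alternatives: quantile normalization, median-of-ratios scaling, a pseudocount of 0.1, no filter, a filter at 5 FPKM, no variance trend, only the groups compared, the replicate number as a block, and each library left out. For SHR against WKY, leaving out libraries gave 15 to 18 higher and 4 to 7 lower genes, and under all 17 the counts differed by at most 1.5 times from those reported. For SHR_OMT against SHR, the lower count was 1 (Dnajb5) with median-of-ratios scaling and 0 to 1 with a library left out (1 without SHR replicate 1), and the higher count stayed at 0 under all 17. For SHR_OMT against WKY, leaving out libraries gave 10 to 14 higher and 3 to 6 lower genes, with 3 lower without WKY replicate 1 or SHR_OMT replicate 2. Of 43 called differences of the 39 named members, 32 kept their call under every alternative in which they were tested, and 11 lost it under at least 1. Of 74 not called, 11 passed under at least 1. No called difference changed sign, while values called in neither setting changed sign in 56 of 1225 cases.

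Across all tested genes, same-numbered libraries of different groups did not deviate together (correlations of −0.109 to 0.0276), so the numbers were not taken as pairs. Hspb6 was lowest in replicate 2 of each group, and with the replicate block it passed in SHR against WKY (adjusted p = 0.0167) and SHR_OMT against WKY (0.0486). With the replicate block the counts were 17 higher and 5 lower for SHR against WKY, 0 and 0 for SHR_OMT against SHR, and 13 and 6 for SHR_OMT against WKY. Depth is unknown, so low genes such as Dnajb13, Dnajc22 and Hspa1l have an unstated counting error.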

Other observations

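In the RefSeq gene order of GRCr8, 3 pairs of members lay within a set limit of 10 genes between them. Hspd1 and Hspe1 had 0 protein-coding genes between them, and in SHR against WKY Hspd1 was higher (0.29) while Hspe1 did not pass (−0.10). Hspa9 with Dnajc18 and Hspb7 with Dnajc16 each had 9 genes between them, near that limit. These 4 genes were higher, by 0.57, 0.45, 0.71 and 0.53 on the log2 scale in that order, as were 17 of the 64 members in all. The part of position was not tested. Hspb2 lay next to Cryab with 0 genes between, and neither passed in that comparison.

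The following genes were chosen after their values were seen. Hspb11, which RefSeq lists as the intraflagellar transport gene Ift25, had 8.23 ± 1.39, 8.41 ± 0.60 and 8.74 ± 0.27 FPKM in WKY, SHR and SHR_OMT. Hspbp1, an exchange factor for Hsp70, had 15.7 ± 0.84, 16.1 ± 0.50 and 15.9 ± 1.77 FPKM. The ribosome-associated pair Hspa14 and Dnajc2 averaged 11.1 ± 1.00 and 19.9 ± 1.54 FPKM in the WKY libraries and 11.1 ± 0.27 and 20.1 ± 0.81 in SHR, with adjusted p-values of 0.973 and 0.822. Dnajc17, which belongs to the spliceosome, measured 9.53, 7.54 and 8.36 FPKM in the WKY libraries and 6.48, 5.32 and 7.16 in SHR, groups that did not overlap, with an adjusted p of 0.0507.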
